A study of Homo sapiens with 6 samples.

Results

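A set of 10 Notch pathway genes was examined across clones of KGN, a cell line from a human ovarian granulosa cell tumour. They are the receptors NOTCH1, NOTCH2 and NOTCH3, the ligand JAG1, the transcriptional repressors HES1, HES4, HEY1, HEY2 and HEYL, and the feedback inhibitor NRARP. The 10 genes were chosen by name from the pathway, with earlier results of these data known, out of 58336 genes in the expression tables. Reads were counted for 8 of them, while HEY2 and HEYL had 0 counts in each of the 6 libraries. The study set cells of genotype FOXL2 WT/C134W, which carry the C134W change in 1 copy of the forkhead factor FOXL2, against FOXL2 WT/WT cells, in which CRISPR/Cas9 had restored that copy. The WT/WT libraries were named 44a, 4.72 and 4.72-44a, and the WT/C134W libraries 3.11, 44b and 3.11-44b. All were KGN cells grown in serum, with RNA extracted 30 h after a transfection whose content is not given in the labels.

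Each genotype was thus seen in 2 named clones, and the labels record editing only for the WT/WT cells, so genotype cannot be told apart from clone history or editing. The third title of each genotype joins the other 2 names, so that library may be a mix and not a separate clone. A fit on all 6 libraries may thus count the same clones more than once. The main tests used the 4 single-clone libraries, 2 per genotype. The gene tests therefore rest on the spread between 2 clones of a genotype, which may be partly technical, and on spread borrowed from other genes. In edgeR's test the borrowed part had a median of 3.71 prior degrees of freedom. Summed counts ran from 35332721 to 46613071 per library, and 3 counts equalled between 0.0663 and 0.0781 CPM (TMM-scaled counts relative to library size). FOXL2 had between 4.34 and 10.1 CPM, and gene counts do not show which allele was transcribed. Of 12 granulosa markers, FSHR, AMHR2, WT1 and GATA4 had 0 counts in all 6 libraries and INHA and CYP19A1 stayed under 1 CPM, whereas NR5A1, INHBA, FST, KITLG and STAR were expressed. Of the 7 granulosa markers tested 4 had a negative log2 fold change, among them INHBA (-0.93) and FST (-0.78), and 3 a positive one, FOXL2 (0.67), STAR (1.04) and KITLG (0.56), and 0 were called. The 12 markers summed to 406 to 420 CPM in WT/WT libraries and 217 to 327 CPM in WT/C134W libraries, mostly INHBA and FST. The sum therefore does not stand for the list as a whole. The part of this difference in the results below was not tested.

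In the Notch pathway a ligand on one cell binds a receptor on its neighbour, and cleavage then frees the receptor's intracellular domain. That domain enters the nucleus and joins the DNA-binding protein RBPJ and a Mastermind coactivator, which together switch on HES and HEY genes. In the ovary, JAG1 is known from oocytes and the NOTCH2 and NOTCH3 receptors from granulosa cells, where the pathway takes part in follicle assembly and growth.

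Promoter sequences from RefSeq (GRCh38.p14) were found for 9 of the 10 genes, all but HEY1, and the 250 bases before each start site were searched for 8 short motifs on both strands. The promoters of HES1 and HES4 are shown because both genes stood lower in the WT/C134W clones on average, and that of NOTCH3 because its level differed most between clones. The first line is chr3:194135898-194136144 on the plus strand, and the second is a 30-base stretch at chr1:1000156-1000185 on the minus strand. The last is chr19:15200996-15201245 on the minus strand. Capitals mark TGGGAA, the core letters that RBPJ recognises.
HES1: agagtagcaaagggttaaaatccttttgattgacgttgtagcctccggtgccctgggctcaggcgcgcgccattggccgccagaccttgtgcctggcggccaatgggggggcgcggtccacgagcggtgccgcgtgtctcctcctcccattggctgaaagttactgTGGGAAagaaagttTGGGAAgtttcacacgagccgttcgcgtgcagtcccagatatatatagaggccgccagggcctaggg
HES4: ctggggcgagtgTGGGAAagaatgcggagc
NOTCH3: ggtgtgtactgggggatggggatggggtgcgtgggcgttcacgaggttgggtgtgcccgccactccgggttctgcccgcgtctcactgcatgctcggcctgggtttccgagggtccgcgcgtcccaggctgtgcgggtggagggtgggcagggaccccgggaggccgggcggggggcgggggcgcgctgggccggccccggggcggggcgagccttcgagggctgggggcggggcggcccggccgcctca

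The HES1 promoter held 2 copies of TGGGAA, both in the direction of the gene and 8 bases apart, at 84 to 79 and 70 to 65 bases before the start. The HES4 promoter held 1 copy, 76 to 71 bases before its start, and the run tgTGGGAAagaa of 12 bases was shared by HES1 and HES4. These distances are counted from the RefSeq start sites. The GENCODE annotation starts HES4 at 1000172 on the minus strand, so by it this copy (1000168 to 1000173) lies across the start of the gene. HEYL had 2 copies and HEY2 had 1, although no read was counted for either gene. By the GENCODE annotation the copies of HEYL and HEY2 also lie inside the genes and not before them. Of 35116 promoters of the same length, 20.8% held TGGGAA on either strand and 5.43% held the longer GTGGGAA, which contains it. GTGGGAA occurred in HES1, HES4, HEY2 and HEYL. The promoters of NOTCH1, NOTCH2, NOTCH3, JAG1 and NRARP held no TGGGAA in this window. The class C site CACGCG, which HES and HEY proteins can bind, occurred 2 times in the HES1 promoter and in no other searched promoter of these genes, against 9.72% of all promoters. The N box CACNAG, another letter pattern bound by HES proteins, had 3 matches in HES1 and 1 in NOTCH3 and occurred in 32% of all promoters. The E box CACGTG (6.34% of all promoters), the forkhead motif GTAAACA (2.98%) and the AP-1 motif TGANTCA (6.57%) had no match in the 9 promoters. CAGAC, a short SMAD-like motif held by 38% of promoters, matched once in HES1.

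On the TPM scale, which accounts for gene length, NOTCH2 was the most abundant of the 10 genes in every library. Its level ran from 43.95 to 58.85 TPM, above the highest value of any other member. JAG1 had 7.30 to 15.07 TPM and NOTCH1 3.73 to 6.10 TPM, so their ranges did not meet. HES1 (0.93 to 15.89 TPM) and NOTCH3 (0.17 to 17.45 TPM) spread across both of those ranges, and their place in the order depended on the clone. HES4 reached 7.08 TPM in 44a and was 0 in 3.11, while HEY1 ran from 0.67 to 4.89 TPM. NRARP was at the limit of detection, at most 0.16 TPM.

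**Figure D1:**
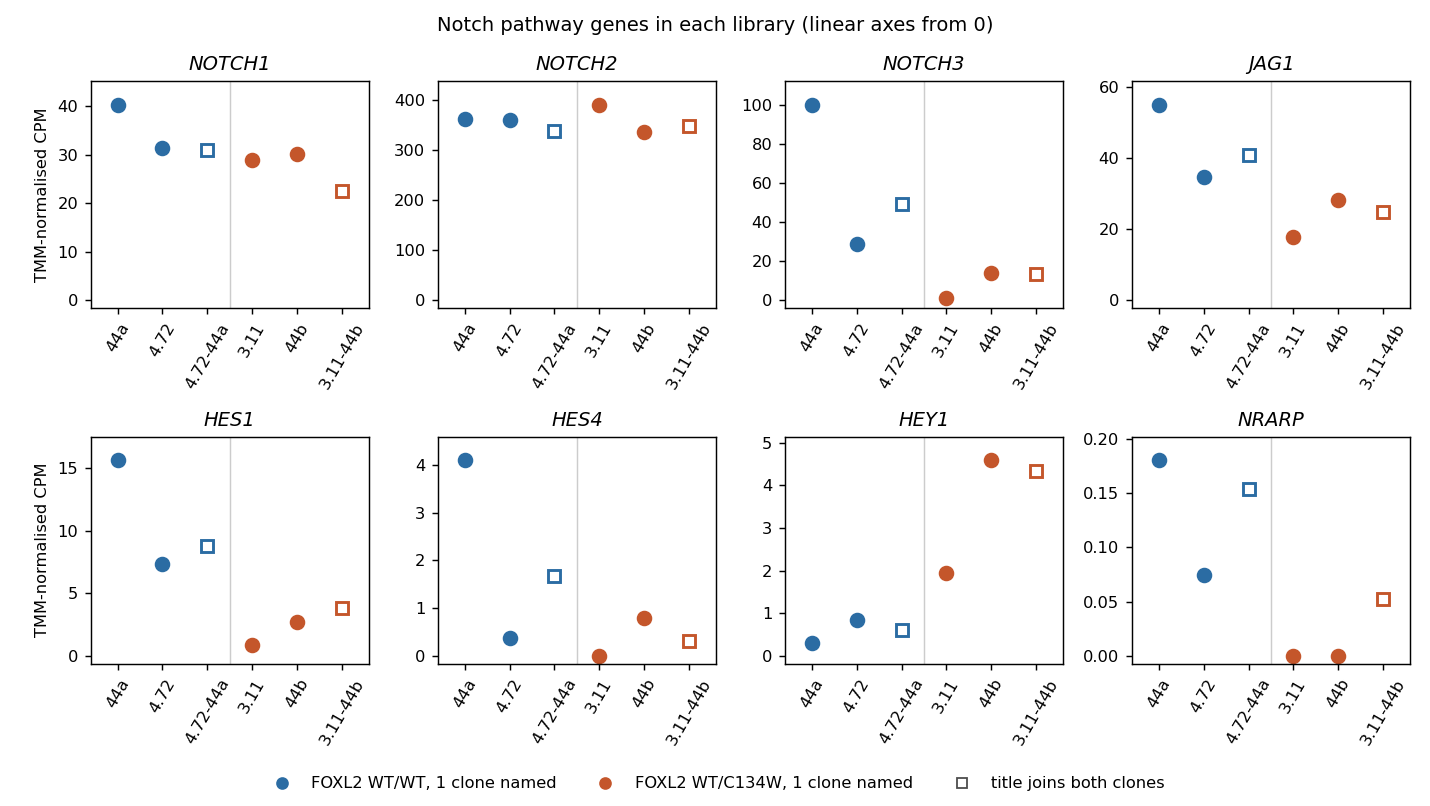
Level of each of the 8 detected genes (y axis, TMM-normalised CPM, linear from 0) in the 6 libraries (x axis); filled circles are libraries named for 1 clone, open squares those whose title joins both names, blue WT/WT and orange WT/C134W. NOTCH2 is level, NOTCH3, JAG1 and HES1 are highest in 44a and lowest in 3.11, and HEY1 is highest in 44b and lowest in 44a.

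Between genotypes, the repressors HES1 and HEY1 stood on opposite sides: in CPM, HES1 was 6.54-fold lower on average in the WT/C134W clones and HEY1 5.75-fold higher. The receptor NOTCH3 and the ligand JAG1 were lower as well, 8.72-fold and 1.96-fold, while NOTCH2 was level. None of the 7 genes that passed the low-count filter was called in edgeR's quasi-likelihood test (Benjamini-Hochberg adjusted p under 0.05 over all genes), where 0% of 16416 genes were called. Before adjustment, 3 of the 7 (JAG1, HES1 and HEY1) had a p under 0.05, against 7.57% of all genes tested. DESeq2 called 1 of the 7 (HES1) and 2.04% of all genes, and limma voom called 0. Without the low-count filter edgeR called 3 of the 7 (NOTCH3, JAG1 and HES1) and 2.73% of all genes. In that fit the median prior degrees of freedom were infinite, so a typical gene's variance came from other genes and not from its own clones. A replicate block on the clone names called 0 of the 7 and 0.0305% of all genes, and limma on log2(TPM + 0.1) 0 of the 7 and 0.00717%. The clones of the genotypes did not overlap in 4 of 7 with lower WT/C134W levels and in 1 of 7 with higher ones, against 19.8% and 19.6% of all genes and 39.5% in either direction. A log2 fold change of at least 2 in size was found for 4 of 7, against 3.61% of all genes. Fold changes are given throughout as the WT/C134W level over the WT/WT level. Their median was -0.97, beside 0.01 over all genes. Because the genes were chosen with earlier results of these data known, these shares beside all genes are a description only. The smallest p an exact permutation of 2 against 2 libraries can give is 0.333, and 0.1 for 3 against 3.

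Among the receptors, NOTCH3 had the widest range. It is a receptor known from vascular smooth muscle and expressed in follicles (ENSG00000074181, chromosome 19, 15159038 to 15200981, minus strand, GRCh38). Its CPM was 100.2 for clone 44a and 28.9 for clone 4.72, but 0.914 for clone 3.11 and 13.9 for clone 44b. In the joined libraries it was 49.1 for WT/WT and 13.2 for WT/C134W. The genotypes did not overlap, and clone 3.11 stood far below the rest, with 38 counts where 44a had 4440. The means were 64.6 ± 50.4 CPM and 7.40 ± 9.18 CPM (SD, n = 2 clones each). The log2 fold change was -3.12 ± 1.54 (SE from edgeR's F value), with an unadjusted p of 0.122 and an adjusted p of 0.747 in edgeR's test. Without 44b the log2 fold change was -6.14, and without 44a it was -1.97.

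NOTCH2, the receptor with the highest level here (ENSG00000134250, chromosome 1, 119911553 to 120069626, minus strand), had 361 and 360 CPM in 44a and 4.72, and 391 and 336 CPM in 3.11 and 44b. The joined libraries lay close by, at 339 and 349 CPM. The genotypes overlapped, and the log2 fold change was 0.02 ± 0.17 (SE), with an adjusted p of 0.999 in edgeR's test. NOTCH2 has a near-identical partial copy, NOTCH2NLA, so its reads are uncertain. That copy had 394 to 653 expected counts per library, few beside the 13185 to 16239 of NOTCH2. It was the only copy found by symbol, and any copies under other names were not counted. NOTCH1 (ENSG00000148400, chromosome 9, 136494433 to 136545786, minus strand) had 40.4 and 31.3 CPM in 44a and 4.72, and 29.02 and 30.1 CPM in 3.11 and 44b, with 31.1 and 22.5 CPM in the joined libraries. The 4.72 and 44b values lay side by side, and the log2 fold change was -0.27 ± 0.20 (SE), with an adjusted p of 0.819 in edgeR's test. NOTCH4, the remaining receptor, did not exceed 0.903 CPM.

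The summed TPM of NOTCH1, NOTCH2 and NOTCH3 ran from 55.09 to 70.68 and overlapped between genotypes. NOTCH2 made up 66.7%, 81.2% and 75.5% of that sum in 44a, 4.72 and 4.72-44a, and 92.0%, 86.6% and 88.8% in 3.11, 44b and 3.11-44b. NOTCH3 took 24.7%, 8.66% and 16.2% in the WT/WT libraries and 0.266%, 4.70% and 4.48% in the WT/C134W libraries. In neither share did the genotypes overlap, and these shares within a library do not depend on how libraries were scaled. NOTCH1 kept between 6.71% and 10.1% everywhere. By TPM, NOTCH2 exceeded NOTCH3 by 2.701-fold in 44a and by 346-fold in 3.11.

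**Figure D2:**
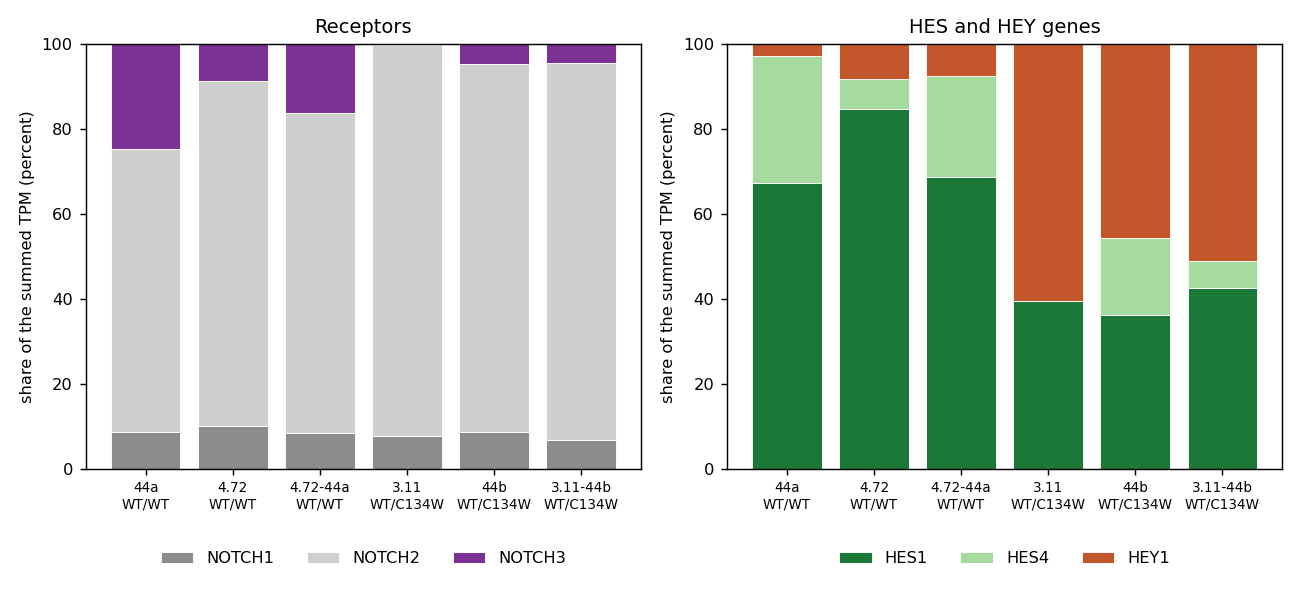
Share of the summed TPM (y axis, percent) taken by each receptor (left) and by each detected HES or HEY gene (right) in the 6 libraries (x axis). NOTCH3 takes 8.66% to 24.7% in WT/WT libraries and at most 4.70% in WT/C134W libraries, and HEY1 takes at most 8.28% in the first and at least 45.6% in the second.

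JAG1 encodes a membrane ligand of these receptors and is mutated in Alagille syndrome (ENSG00000101384, chromosome 20, 10637684 to 10673999, minus strand). Clones 44a and 4.72 had 55.2 and 34.8 CPM, and clones 3.11 and 44b had 17.7 and 28.2 CPM. The joined libraries had 41.0 and 25.0 CPM, each between the clones it names, and the genotypes did not overlap in any of the 6 libraries. The log2 fold change was -0.97 ± 0.32 (SE, 2 clones each), with an unadjusted p of 0.0266 and an adjusted p of 0.647 in edgeR's test. Without 44a it was -0.60. Of the 7 other ligands listed, DLL1, DLL3, DLL4, DLK2, JAG2 and DNER stayed under 1 CPM in every library, and DLK1 had 0 counts.

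HES1, a basic helix-loop-helix repressor and the best known Notch target (ENSG00000114315, chromosome 3, 194136145 to 194138732, plus strand), had 15.6 and 7.36 CPM in the WT/WT clones 44a and 4.72. In the WT/C134W clones 3.11 and 44b it had 0.842 and 2.67 CPM, that is 35 and 121 counts against 693 and 296. The joined WT/WT library stood at 8.76 CPM and the joined WT/C134W library at 3.83 CPM, which exceeded both clones it names. All 3 WT/WT libraries were above all 3 WT/C134W libraries. The log2 fold change was -2.71 ± 0.69 (SE), with an unadjusted p of 0.00906 and an adjusted p of 0.593 in edgeR's test. DESeq2 gave an adjusted p of 0.012, and over all the settings run the adjusted p of HES1 lay between 1.53e-05 and 0.999.

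HES4, a relative of HES1 (ENSG00000188290, chromosome 1, 998962 to 1000172, minus strand), did not separate the genotypes. It had 4.11 CPM in 44a, 0.373 CPM in 4.72, 0 in 3.11 and 0.795 CPM in 44b, with 1.67 and 0.312 CPM in the joined libraries. Clone 44a alone was high, and 44b lay above 4.72. The 0 in 3.11 allows up to 0.0722 CPM (3 counts, for counting error only). The log2 fold change was -2.49 ± 2.03 (SE), with an adjusted p of 0.859 in edgeR's test, and it was 0.092 without 44a. HES6, which is known to act against HES1 in neural tissue, was the one other HES gene above 1 CPM. It had 11.8 and 10.4 CPM in 44a and 4.72 and 4.79 and 4.81 CPM in 3.11 and 44b, with a log2 fold change of -1.21 ± 0.30 (SE) and an adjusted p of 0.593 in edgeR's test. HES6 was called with all 6 libraries (edgeR, adjusted p = 0.0457) and by DESeq2 (adjusted p = 0.0404). These settings called 3.18% and 2.04% of all genes. HES2, HES3 and HES5 had 0 counts throughout.

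HEY1, a HES-related repressor with roles in vessels and the heart (ENSG00000164683, chromosome 8, 79764010 to 79767863, minus strand), had the opposite order. Clones 44a and 4.72 had 0.293 and 0.845 CPM, and clones 3.11 and 44b had 1.95 and 4.59 CPM. The counts behind these were 13, 34, 81 and 208. The exact 95% Poisson intervals, which cover counting error only, were 0.585 to 1.18 CPM in 4.72 and 1.55 to 2.42 CPM in 3.11 and did not meet. The joined WT/WT library had 0.616 CPM and the joined WT/C134W library 4.35 CPM, so no WT/WT library reached the lowest WT/C134W one. The log2 fold change was 2.53 ± 0.83 (SE), with an unadjusted p of 0.0245 and an adjusted p of 0.643 in edgeR's test. With the joined libraries taken as further clones the log2 fold change was 2.64 and the adjusted p of edgeR's test 0.0483, in a fit that called 3.18% of all genes. In TPM, limma gave a difference of 0.98 in log2(TPM + 1) and of 1.599 in log2(TPM + 0.1). The pseudocount shrinks low values on these scales, and TPM is also scaled by transcript length, unlike CPM. The deposited mean transcript length of HEY1 ran from 761 bases in 44a to 2293 bases in 3.11, with 1803 in 4.72 and 2087 in 44b. Before any pseudocount, HEY1 had 0.67 and 0.69 TPM in 44a and 4.72 and 1.43 and 3.55 TPM in 3.11 and 44b. The size of the HEY1 difference thus depended on the scale.

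HEY2 and HEYL, the other HEY genes, had 0 counts, which in the shallowest scaling allows up to 0.0781 CPM. NRARP, which promotes loss of the Notch intracellular domain, had 8 and 3 counts in 44a and 4.72 and 0 in 3.11 and 44b, with 6 and 2 counts in the joined libraries. It did not pass the filter, and edgeR without the low-count filter gave it an adjusted p of 0.933. Over both clones, its WT/WT level was 3.77-fold that of a floor of 3 counts over the WT/C134W clones. That floor limits the WT/C134W side alone, and the 11 WT/WT counts carry a counting error of their own. The joined libraries stood at 0.154 and 0.0520 CPM.

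Within a library, HES1 exceeded HEY1 in TPM by 23.7-fold in 44a, 10.2-fold in 4.72 and 9.14-fold in 4.72-44a. In 3.11, 44b and 3.11-44b HEY1 was the higher of the pair, by 1.54-fold, 1.263-fold and 1.20-fold. The log2 ratio of HEY1 to HES1 was -3.96 ± 0.86 in WT/WT and 0.48 ± 0.20 in WT/C134W (SD, n = 2 single clones), a difference of 4.44. The exact permutation test (2-sided) gave p = 0.333, the smallest it can give. HES1, HES4 and HEY1 together summed to 23.64, 8.33 and 12.38 TPM in 44a, 4.72 and 4.72-44a and 2.36, 7.78 and 9.58 TPM in 3.11, 44b and 3.11-44b, so the genotypes overlapped in the summed TPM. In CPM the sums were 20.04, 8.57 and 11.0 against 2.79, 8.06 and 8.48 and did not overlap. HEY1 made up 2.83%, 8.28% and 7.51% of the summed TPM in the WT/WT libraries and 60.6%, 45.6% and 51.0% in the WT/C134W libraries.

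The clones of a genotype differed from each other as well. HES1, NOTCH3 and JAG1 were higher in 44a than in 4.72, by 2.13-fold, 3.46-fold and 1.59-fold, and higher in 44b than in 3.11, by 3.17-fold, 15.2-fold and 1.59-fold. Counting NOTCH1 and HES4, 5 of the 7 were higher in both pairs, against 24.5% of all genes. With HES4, 4 of the 7 tested genes were at least 1.5-fold higher in both pairs, a pattern chosen after the values were seen, against 6.25% of all genes. HEY1 did not share that order in CPM, with a ratio of 0.347 between 44a and 4.72 and of 2.36 between 44b and 3.11. In TPM, HEY1 was level between 44a (0.67) and 4.72 (0.69). The labels do not say that 44a and 44b are related.

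Markers of other cell types were counted beside these values. Endothelial cells are rich in Notch signalling. Of the 8 endothelial markers, CDH5 had 0 counts, TIE1 and VWF stayed under 1 CPM, and PECAM1, KDR and ESAM did not exceed 1.68 CPM. TEK ran from 1.44 to 11.3 CPM and EGFL7 from 0.385 to 7.81 CPM. The 8 markers summed to 7.96 to 10.7 CPM in WT/WT and 9.10 to 15.2 CPM in WT/C134W. The 8 smooth muscle and pericyte markers summed to 7234 to 11483 CPM in WT/WT and 2268 to 4286 CPM in WT/C134W, mostly ACTA2 and TAGLN. CNN1 had 0 counts and DES stayed under 1 CPM. Of the 6 tested, 5 had a negative log2 fold change and MYH11 a positive one (1.65). MYH11 and RGS5 overlapped between genotypes. PDGFRB, also a pathway gene listed here, is one of the 8. The sums did not overlap between genotypes, as for NOTCH3, and their part in the NOTCH3 values was not tested. Among leukocyte markers CD3E had 0 counts and CD14 stayed under 1 CPM, with sums of 82.4 to 100.4 CPM in all libraries, mostly CD68. Of the 6 epithelial markers EPCAM and CDH1 stayed under 1 CPM, and the sums, mostly KRT18, overlapped between genotypes (1043 to 1493 and 375 to 1234 CPM). The 50 most abundant genes took 25.5% to 27.4% of counts in WT/WT and 20.5% to 21.5% in WT/C134W, and its part in the values above was not tested beyond the scalings compared.

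Around these genes, 60 further pathway genes were listed by role, and 48 passed the filter. In edgeR's test 0 of them were called in either direction, and 9 had an unadjusted p under 0.05, 2 higher and 7 lower in WT/C134W, against 2.88% higher and 4.7% lower of all genes. Their median log2 fold change was -0.07, beside 0.01 over all genes, and 26 of 48 were negative against 49.4% of all genes. This list too was chosen with earlier results of these data known.

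The nuclear complex did not share the order of HES1. RBPJ, its DNA-binding protein, had 67.0 and 89.4 CPM in 44a and 4.72 and 136 and 100.2 CPM in 3.11 and 44b, a log2 fold change of 0.60 ± 0.23 (SE) with an unadjusted p of 0.0402 and an adjusted p of 0.658 in edgeR's test. It was thus higher where HES1 was lower. MAML3, a coactivator, had 2.05 and 3.06 CPM against 9.05 and 4.31 CPM. MAML1, MAML2 and SNW1 had log2 fold changes between -0.15 and 0.02.

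Of 9 genes for receptor cleavage, 4 had a positive and 5 a negative log2 fold change, and 0 were called. ADAM10, the metalloprotease that makes the first cut after ligand binding, had 154 and 139.7 CPM in 44a and 4.72 and 160.1 and 128 CPM in 3.11 and 44b. FURIN, which cuts the receptor precursor, had 178 and 184 CPM against 107 and 128 CPM, a log2 fold change of -0.62 ± 0.16 (SE), and NCSTN, a gamma-secretase subunit, had 147 and 143 CPM against 109 and 97.3 CPM. Their adjusted p was 0.593 and 0.633 in edgeR's test. With all 6 libraries edgeR called FURIN (adjusted p = 0.0186) and NCSTN (0.038), and DESeq2 called FURIN (0.038). Of all genes, these settings called 3.18% and 2.04%. ADAM17, a related metalloprotease, had a log2 fold change of 0.48. Among the sugar-modifying enzymes, LFNG and RFNG, which alter how receptors respond to ligands, had log2 fold changes of -0.51 and -0.67, and POFUT1 of 0.06.

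Of 9 tested genes for ubiquitin transfer and trafficking, 6 were positive and 3 negative. NUMBL, a relative of the Notch inhibitor NUMB, had a log2 fold change of -0.40 and NUMB itself of 0.26, with 92.0 to 132 CPM. NEURL1B, a ligase for Notch ligands, had 28.3 and 17.5 CPM against 63.5 and 25.7 CPM, so the genotypes overlapped. Its adjusted p was 0.740 in edgeR's test, and it was called only by edgeR without the low-count filter (adjusted p = 0.00176). That fit called 2.73% of all genes. MIB1, which marks ligands for uptake, was at 0.10 and DTX1, a Notch target in lymphocytes, had 0 counts.

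Of 7 corepressors, 5 had negative values and 2 positive ones. TLE1, a Groucho protein that HES1 recruits, had a log2 fold change of -0.55 ± 0.21 (SE), whereas TLE3 was at 0.68 ± 0.28 and SPEN at -0.33 ± 0.16. Their adjusted p in edgeR's test was 0.658, 0.671 and 0.705. The ID genes, helix-loop-helix inhibitors that answer to BMP signals, had log2 fold changes of 0.50 (ID1), 0.01 (ID2), -0.41 (ID3) and -0.60 (ID4). ID1 had 28.4 and 56.2 CPM in 44a and 4.72 against 38.3 and 80.8 CPM in 3.11 and 44b. ID3, the most abundant of the 4 by TPM, had 172 and 270 CPM against 119.5 and 212 CPM, and the genotypes overlapped in both. ID4 did not overlap, with 14.1 and 23.9 CPM against 12.8 and 12.2 CPM (adjusted p of 0.72 in edgeR's test).

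Genes known as Notch targets in other tissues differed in direction and size. EFNB2, an ephrin ligand and arterial Notch target, had 164 and 158 CPM in 44a and 4.72 and 32.0 and 85.5 CPM in 3.11 and 44b, a log2 fold change of -1.45 ± 0.48 (SE) with an adjusted p of 0.647 in edgeR's test. DESeq2 called it (adjusted p = 0.0387), as did edgeR without the low-count filter (2.9e-09). PDGFRB, a growth factor receptor of pericytes, had 478 and 854 CPM against 371 and 309 CPM, at -0.96 ± 0.30 (adjusted p of 0.633 in edgeR's test). PDGFRB was called by edgeR with all 6 libraries (adjusted p = 0.0422) and without the low-count filter (0.0036). Of all genes, the fit on 6 libraries called 3.18%, the fit without the filter 2.73% and DESeq2 2.04%. CCND1, the cyclin of early G1, had a log2 fold change of -0.04, MYC of -0.28 and SNAI2 of 0.17, and the genotypes overlapped in all 3.

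**Figure D3:**
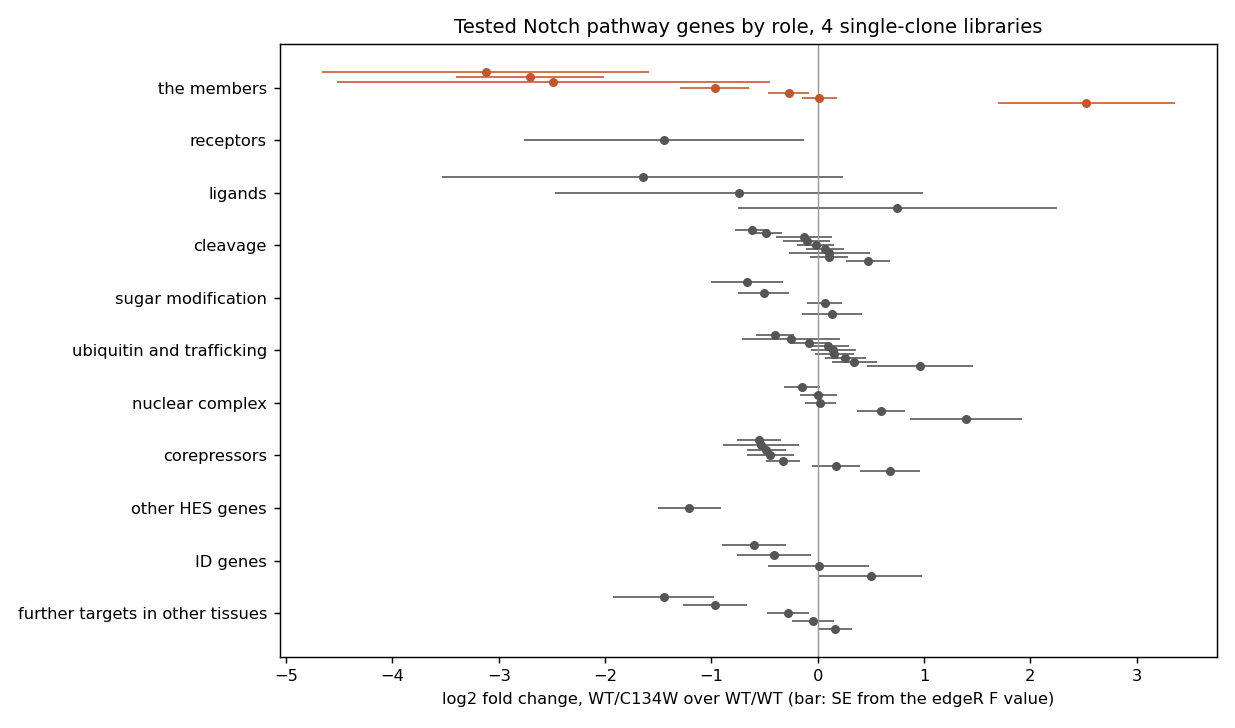
Log2 of the WT/C134W level over the WT/WT level (x axis; bars are the SE from edgeR's F value), of the 7 tested genes of the list at the top and of 48 further pathway genes by role (y axis), from the 4 single-clone libraries. The 7 genes run from -3.12 to 2.53 and the 48 others from -1.65 to 1.39.

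The genes with the level pattern most like HES1 over the 6 libraries, by Pearson's r of log2 CPM among 8981 protein-coding genes of at least 10 CPM on average, were RFX2, TEAD3 and AFG3L2 (r = 0.998, 0.997 and 0.996). For HEY1 they were ADAMTS1, CMBL and BMS1 (r = 0.998, 0.998 and 0.994). TEAD3 had 91.7, 70.1 and 69.1 CPM in 44a, 4.72 and 4.72-44a and 28.7, 43.8 and 49.7 CPM in 3.11, 44b and 3.11-44b. ADAMTS1 had 76.3, 101.2 and 95.6 CPM against 140.3, 178 and 173 CPM. With 6 points that share clones, 431 genes exceeded an r of 0.9 with HES1 and 199 with HEY1, so the ranking is a description only.

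**Figure D4:**
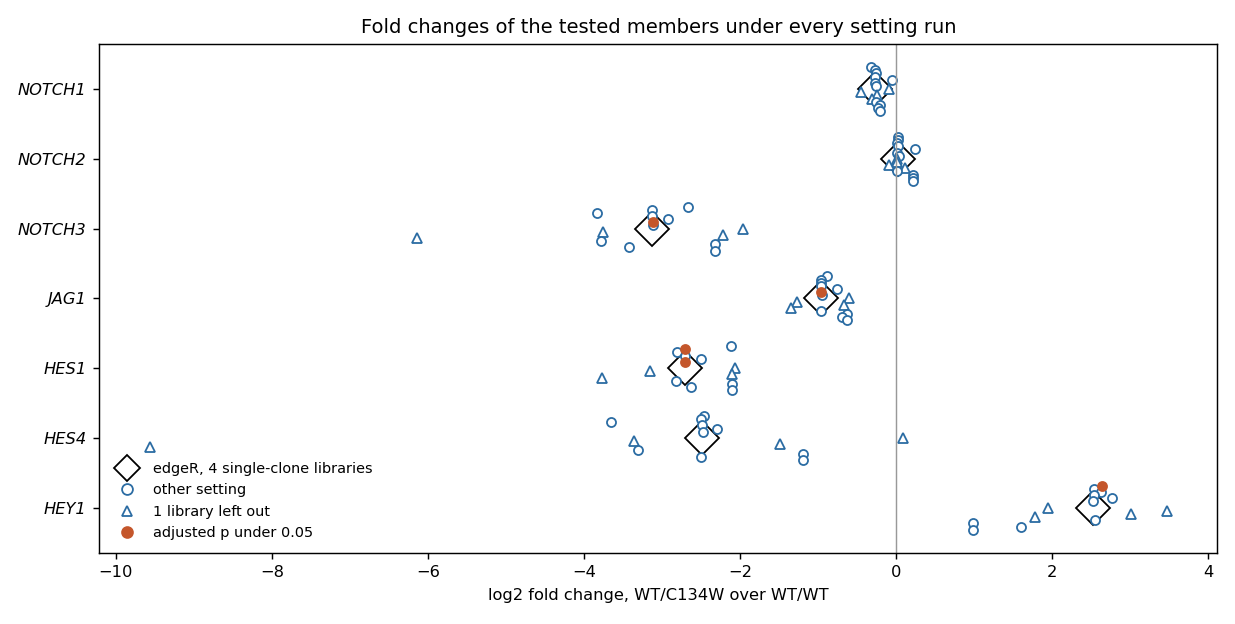
Log2 of the WT/C134W level over the WT/WT level (x axis) of the 7 tested genes (y axis) in edgeR's test on 4 single-clone libraries (open diamonds) and under each of 15 other settings in which the gene was tested (circles, or triangles with 1 library left out; filled orange where the adjusted p was under 0.05). HES1, NOTCH3 and JAG1 lie left of 0 and HEY1 right of 0 in every setting, and HES4 spans 0; its value of -9.56 rests on the count of 0 in 3.11 and is no bound.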

How the data were processed

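RNA-seq gene tables of 6 libraries were used, grouped by the genotype in the labels. The authors deposited RSEM expected counts, which are estimated, unscaled read numbers for each gene. TPM, scaled by length to a fixed sum, was deposited by the authors, and so was FPKM, which was not used. The mean transcript length is a deposited column of no fixed scale that moves with isoform estimates. Tools named in the submitters' processing notes are RSEM 1.3.1, STAR 2.7.6a, DESeq2 1.26.0 and Picard 2.8.1, beside a mouse build, although the gene IDs are human. The kit keeps strand, per the labels' protocols. The human build and the strand setting of the counting were not given in the sources used here. Symbols came from GENCODE 29 (58216 of 58336 IDs).

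Counts were rounded, filtered with filterByExpr, TMM-scaled and tested with edgeR 4.0.16 (robust glmQLFit and glmQLFTest, R 4.3.3) on the 4 single-clone libraries, adjusted over all genes. The code was checked on simulated data with the same spread for every gene and no differences between clones. That check does not show how the test behaves on these clones. CPM values were scaled over 6 libraries. The SE was taken as the size of the log2 fold change over the root of F. DESeq2 1.42.0, limma 3.58.1 on voom values and on log2(TPM + 1) or log2(TPM + 0.1), other scalings, filters and library sets were alternatives. All 10 members were named, and of the other genes up to 4 per role with the smallest p, with the highest in TPM. Members and lists were chosen with earlier results of these data known. A few genes of the fixed lists are counted but not reported by name here.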

Additional observations from a re-analysis of the deposited data

How the results depend on the processing

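The genes NOTCH3, JAG1, HES1 and HEY1 kept their sign in each of the 15 alternatives in which they were tested (14 for HES1 and HEY1, which 10 CPM in 2 libraries removed). Each setting reused the same clones, which did not overlap between genotypes for these genes. The sign could therefore hardly turn, and its constancy is no added support. Calls varied. Of the 10 genes, edgeR called 1 with all 6 libraries (HEY1), DESeq2 1 (HES1) and edgeR without the low-count filter 3 (NOTCH3, JAG1 and HES1). In that last fit the median prior degrees of freedom were infinite, against 3.71 with the filter and the same scaling, and it called 2.73% of all genes. Of the other pathway genes these settings called 4, 3 and 3, and of all genes 511, 283 and 664. The replicate block that pairs 44a with 44b and 4.72 with 3.11, a shared stem in the titles and not a stated pairing, called 5 genes in all and none of these 10 or the other pathway genes, with an adjusted p of 0.149 for HES1. Limma on log2(TPM + 0.1) called 1 gene in all. Leaving out 1 clone gave 0 calls. It moved the log2 fold change of HES1 between -3.77 and -2.07, of HEY1 between 1.77 and 3.46, of NOTCH3 between -6.14 and -1.97, of JAG1 between -1.34 and -0.60, of HES4 between -9.56 and 0.092 (the sign turned without 44a) and of NOTCH2 between -0.10 and 0.12 (the sign turned without 3.11). Only 3 libraries enter such a fit, and the lone clone is taken to vary like the others. With library totals alone the median of all genes moved from 0.01 to 0.23, and NOTCH3, JAG1, HES1 and HEY1 stood at -2.92, -0.75, -2.50 and 2.77. The log2 ratio of HEY1 to HES1 differed by 4.11 with all 6 libraries (exact p = 0.1, the smallest possible) and by 5.43 in CPM. Where no other cause is given, the cause was not tested. HEY1, HES4 and NRARP rest on few reads.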
